A study of Homo sapiens with 6 samples.

Results

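MiR-193a, miR-193b and the miR-365 hairpins beside them were followed in melanoma cells treated for 24 hours with RSL3 combined with IFN-γ (3 libraries) or with RSL3 alone (3 libraries). The members were taken by name, as the 7 mature arms hsa-miR-193a-3p, hsa-miR-193a-5p, hsa-miR-193b-3p, hsa-miR-193b-5p, hsa-miR-365a-3p, hsa-miR-365b-3p and hsa-miR-365a-5p (hsa stands for human and is left out where only the name is repeated) of the 1596 mature miRNAs listed in the deposited counts. MiR-365b-5p, the remaining arm of these 4 hairpins, was added for comparison. RSL3 is a small molecule that blocks GPX4, a selenoenzyme which removes lipid peroxides, and so starts ferroptosis, an iron-dependent form of cell death. IFN-γ is a cytokine by which activated T cells act on tumor cells. All 6 libraries received RSL3, and no untreated library or library of IFN-γ alone was analysed here. The labels give the cell line as A2058, whereas the study's methods give A375. Both are established human melanoma lines, and each is 1 line without other cells of a tumor. The labels number the replicates but do not say that they were separate cultures, so that the p-values describe library-to-library spread that could be technical. In such bulk RNA, fewer cells of a kind and less RNA per cell cannot be told apart.

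MiRNAs are short RNAs that guide Argonaute proteins to messenger RNAs, chiefly through the seed, the bases near the 5′ end. A hairpin is cut into a 5p and a 3p arm, of which usually 1 is kept and the other degraded. The 3p arms of miR-193a and miR-193b are known in human cells as repressors of CCND1, a cyclin of the G1 phase, MCL1, which blocks apoptosis, and the receptor KIT, and miR-193b has been described as a growth suppressor in melanoma cells. MiR-365 is transcribed beside miR-193, and in mouse the miR-193b and miR-365 cluster is known for its part in brown fat.

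In GRCh38 the hairpin MIR193B lies on the plus strand of chromosome 16 from 14303967 to 14304049, and MIR365A follows it from 14309285 to 14309371, 5235 bases further on. GENCODE places both in introns of the long non-coding host gene MIR193BHG. MIR193A lies on the plus strand of chromosome 17 from 31559996 to 31560083, with no annotated host gene over it. MIR365B follows from 31575411 to 31575521, 15327 bases further on, in an exon of the long non-coding RNA AC003101.1. The mature sequences, taken from RefSeq (GRCh38.p14), are shown because they set which reads can be told apart. Capitals mark the seed, bases 2 to 8.
hsa-miR-193a-3p: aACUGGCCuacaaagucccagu
hsa-miR-193b-3p: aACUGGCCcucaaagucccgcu
hsa-miR-193a-5p: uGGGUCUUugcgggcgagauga
hsa-miR-193b-5p: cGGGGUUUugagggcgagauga
hsa-miR-365a-3p: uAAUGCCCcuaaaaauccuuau
hsa-miR-365b-3p: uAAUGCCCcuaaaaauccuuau
hsa-miR-365a-5p: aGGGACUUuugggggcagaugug
hsa-miR-365b-5p: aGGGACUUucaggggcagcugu

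The 3p arms of miR-193a and miR-193b shared their seed and differed at 4 of 22 bases beyond it. Counted from the 5′ end of miR-193a-3p, these were U9C, A10U, A20G and G21C. The 5p arms of miR-193a and miR-193b also differed at 4 of 22 bases, U5G and C6U among them, and so had different seeds. No other mature human miRNA in the RefSeq table held a seed of these arms beside the pairs printed here. The 3p arms of miR-365a and miR-365b had the same 22 bases, and their counts were equal in all 6 libraries. Which hairpin these reads came from cannot be told from them, and the 2 entries are described as miR-365-3p. The 5p arms of miR-365a and miR-365b shared their seed and differed at 3 of 22 bases (U10C, G11A and A19C), which separates the loci.

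The counts of all listed miRNAs summed to between 4383940 and 5367150 in a library with RSL3 and IFN-γ, and between 4897890 and 6513382 with RSL3. Reads listed in more than 1 entry would count more than once in these totals. Levels are CPM, read counts scaled to a common library size with TMM factors, which correct for unequal composition of the libraries. The TMM factors were 0.944, 1.33 and 1.15 in replicates 1 to 3 of the combined treatment, against 0.861, 0.913 and 0.877 with RSL3. Each factor of the combined treatment was thus above each of RSL3. Of 6 melanocyte and melanoma markers miR-146a-5p was by far the most abundant, at 114723 CPM with the combined treatment and 100133 CPM with RSL3 (log2 fold change 0.20). MiR-211-5p was at 335 CPM with the combined treatment and 286 CPM with RSL3 (0.23), and miR-204-5p at 169.6 CPM with the combined treatment and 286 CPM with RSL3 (−0.75, edgeR adjusted p = 0.0750). MiR-514a-3p fell, at 24.3 CPM with the combined treatment and 63.8 CPM with RSL3 (−1.38, edgeR adjusted p = 0.0374), a call that was lost with library totals, with the GC trend removed, and without RSL3 replicate 1 or 3 or replicate 2 or 3 of the combined treatment. MiR-508-3p and miR-509-3p were too low to be tested, and miR-508-3p had no reads in any library of the combined treatment. The summed level of 13 miRNAs that mark blood, epithelial, mesenchymal, liver or muscle cells, none of them at 0 in any library, ranged from 690.4 to 1249 CPM with the combined treatment and from 1425 to 1900.0 CPM with RSL3. Single markers went both ways. MiR-143-3p was at 332 CPM with the combined treatment and 716 CPM with RSL3, and miR-1-3p at 212 and 542 CPM (SD 640 with RSL3). MiR-122-5p was at 107 CPM with the combined treatment and 50.2 CPM with RSL3, and miR-451a at 183 and 113 CPM. EdgeR called 0 of the 10 tested. With the replicate number as a block it called miR-122-5p higher (edgeR adjusted p = 0.0197), as it did 5.15% of all tested miRNAs. What part these markers have in the results was not tested.

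The 3p arm of miR-193a rose with RSL3 and IFN-γ, and miR-193a-5p and miR-193b-3p were about 1.74 and 1.84 times as abundant as with RSL3 alone without passing the test. MiR-365-3p was at 0.428 of its RSL3 level. The other arms of the same hairpins, miR-193b-5p and miR-365a-5p, overlapped between the groups. The 3p arms of neighbouring hairpins therefore had fitted changes of opposite sign, although the miR-365-3p reads cannot be divided between the chromosomes.

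The arm hsa-miR-193a-3p had 19.1, 28.5 and 27.8 CPM in the libraries with RSL3 and IFN-γ (79, 167 and 172 reads), against 6.71, 13.2 and 9.10 CPM with RSL3 (34, 59 and 52 reads). Each library of the combined treatment lay above each RSL3 library. The means were 25.1 ± 5.24 CPM with the combined treatment and 9.67 ± 3.28 CPM with RSL3 (SD, n = 3 each). On the log2 scale the fitted fold change was 1.38 with a standard error of 0.330 (edgeR adjusted p = 0.0405, quasi-likelihood test with Benjamini-Hochberg adjustment over 758 miRNAs). It was the 1 of 7 members that passed this test as higher, where 2.51% of all tested miRNAs did. The call was lost without RSL3 replicate 1 (log2 fold change 1.18, edgeR adjusted p = 0.206), without RSL3 replicate 3 (1.32, edgeR adjusted p = 0.0981), and without replicate 2 (1.28, adjusted p = 0.121) or 3 (1.29, adjusted p = 0.107) of the combined treatment. With upper-quartile factors the edgeR adjusted p was 0.0529.

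The arm hsa-miR-193a-5p, the other arm of that hairpin, had 137, 179.7 and 134 CPM with RSL3 and IFN-γ, against 77.3, 100.2 and 82.6 CPM with RSL3. The lowest library of the combined treatment was above the highest RSL3 library. Its log2 fold change was 0.80 (SE 0.234, edgeR adjusted p = 0.0750). With the replicate number as a block, miR-193a-5p was called higher as well (0.79, edgeR adjusted p = 0.0384). The block was run since same-numbered libraries deviated together, but the labels do not say that they shared a culture or day.

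The arm hsa-miR-193b-3p, the most abundant member, ranked 84 of 1596 miRNAs by mean level. It had 1315, 1074 and 1312 CPM with RSL3 and IFN-γ, against 609, 857 and 542 CPM with RSL3. The groups did not overlap, and RSL3 replicate 2 came nearest to the combined treatment. The means were 1234 ± 138 CPM with the combined treatment and 669 ± 166 CPM with RSL3 (SD, n = 3 each). The fitted log2 fold change was 0.88 with a standard error of 0.247 (edgeR adjusted p = 0.0648). Without RSL3 replicate 2 it passed (log2 fold change 1.08, edgeR adjusted p = 0.0359). The arm hsa-miR-193b-5p, from the other side of that hairpin, had 143, 121 and 135 CPM with RSL3 and IFN-γ, against 137, 189.8 and 92.7 CPM with RSL3, so that the libraries of the combined treatment lay inside the RSL3 range. Its log2 fold change was −0.07 (SE 0.277, edgeR adjusted p = 0.893), and 0.28 when the libraries were scaled by their totals alone.

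MiR-365-3p, the entries hsa-miR-365a-3p and hsa-miR-365b-3p, had 176, 71.2 and 102 CPM with RSL3 and IFN-γ, against 361, 203 and 252 CPM with RSL3. The highest library of the combined treatment, replicate 1, stayed below the lowest RSL3 library. The means were 116 ± 53.6 CPM with the combined treatment and 272 ± 80.5 CPM with RSL3 (SD, n = 3 each). The fitted log2 fold change was −1.23 with a standard error of 0.349 (edgeR adjusted p = 0.0663). It did not pass, and 0 of 7 members passed as lower, where 2.24% of all tested miRNAs did. Both entries had an unadjusted p under 0.05, and other tools called both (DESeq2 adjusted p = 0.0168, limma adjusted p = 0.0493). With the replicate block miR-365-3p was called lower (−1.28, SE 0.192, edgeR adjusted p = 0.0187), and likewise without replicate 1 of the combined treatment (−1.67, edgeR adjusted p = 0.00697).

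The arm hsa-miR-365a-5p, read from the chromosome 16 hairpin, was the second most abundant member. It had 752, 328 and 486 CPM with RSL3 and IFN-γ, against 590.2, 759.7 and 425 CPM with RSL3. The ranges overlapped over most of their length, and the log2 fold change was −0.18 (SE 0.330, edgeR adjusted p = 0.761), or 0.12 with scaling by library totals. MiR-365b-5p, read from the chromosome 17 hairpin, had 27.5, 25.3 and 19.8 CPM with RSL3 and IFN-γ, against 23.7, 25.5 and 26.1 CPM with RSL3. Its log2 fold change was −0.05 (SE 0.255, edgeR adjusted p = 0.908), or 0.31 with scaling by library totals.

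All 7 members passed the filter on low counts. Their 2 miR-365 3p entries have the same sequence and counts, which leaves 6 separate sets of counts. In 5 of the 7 members, or 4 of the 6 sets, the ranges of the groups lay apart, which was so for 29.8% of all tested miRNAs. An unadjusted p under 0.05 was given by edgeR to 5 of 7 members and to 25.9% of all tested miRNAs. With the replicate block 2 of 7 were called higher and 2 of 7 lower, against 5.15% and 5.67% of all tested miRNAs. Both miR-365 3p entries, the same set of counts, are among the 5 of 7. They are also the members called lower with the block, by DESeq2 and by limma. DESeq2 called 3 of 7 higher (6.86% of all) and 2 lower (5.8% of all), and limma 2 higher (3.43%) and 2 lower (3.3%). The median log2 fold change of the members was −0.07 and that of all tested miRNAs −0.04. The median of all tested miRNAs moved with the scaling, to 0.33 with library totals and −0.13 with upper-quartile factors. Relative to that median, 4 scalings gave 1.40 to 1.44 for miR-193a-3p, 0.90 to 0.92 for miR-193b-3p and −1.26 to −1.17 for miR-365-3p. A change of scaling moves all miRNAs nearly alike, so these narrow ranges follow largely from subtracting the median.

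**Figure D1:**
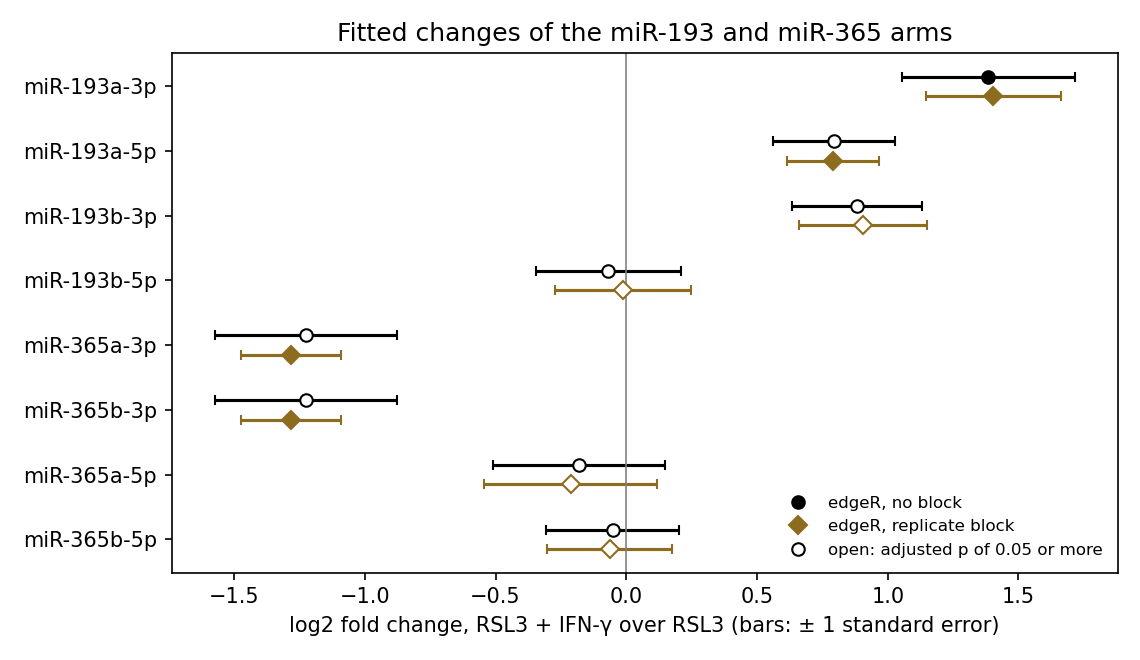
Log2 fold changes from edgeR, RSL3 combined with IFN-γ over RSL3, with bars of 1 standard error, without (circles) and with (diamonds) the replicate number as a block; filled symbols have an adjusted p under 0.05. MiR-193a-3p is filled in both fits at 1.38 and 1.40, whereas miR-193a-5p and both miR-365 3p entries are filled with the block alone.

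The arms differ in base composition. MiR-365-3p had 31.8% GC, miR-193a-3p 50.0%, miR-365a-5p 56.5% and the remaining arms 59.1%. Across 679 tested miRNAs with a sequence, fold changes were higher at higher GC content, at a Spearman's rho of 0.469 that is a description, since all points share the same 6 libraries. With this trend removed in each library, the log2 fold change of miR-365-3p was −0.57 (edgeR adjusted p = 0.238) and that of miR-193b-3p 0.66 (edgeR adjusted p = 0.134). MiR-193a-3p stayed at 1.38 (edgeR adjusted p = 0.0508), or 1.40 with the block added (edgeR adjusted p = 0.0484). No member was called without the block (of all tested miRNAs 1.45% were higher and 1.19% lower), and with it 1 was called higher (1.85% higher and 1.19% lower). In that fit with the block miR-365-3p was at −0.61 (edgeR adjusted p = 0.122) and miR-193a-5p at 0.55 (edgeR adjusted p = 0.128). What part the GC trend has in the changes themselves was not tested.

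The ratio of the 3p to the 5p arm within a library does not depend on the scaling. The mir-193b hairpin gave 9.17, 8.84 and 9.68 reads of the 3p arm per read of the 5p arm with RSL3 and IFN-γ, against 4.44, 4.51 and 5.84 with RSL3. All 3 ratios of the combined treatment were above those of RSL3. The difference on the log2 scale was 0.92 (SE 0.328, limma adjusted p = 0.230 over 181 hairpins). The mir-193a hairpin was read mostly from its 5p arm, with 0.140, 0.159 and 0.207 reads of the 3p arm per 5p read with the combined treatment, against 0.0879, 0.133 and 0.111 with RSL3. Its log2 difference was 0.61 (SE 0.355, limma adjusted p = 0.388).

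For mir-365a the ratio went the other way. It gave 0.234, 0.217 and 0.211 reads of the 3p arm per 5p read with RSL3 and IFN-γ, against 0.611, 0.268 and 0.593 with RSL3. RSL3 replicate 2 lay close to the libraries of the combined treatment, and the groups did not overlap. The log2 difference was −1.06 (SE 0.414, limma adjusted p = 0.230), and −1.45 without RSL3 replicate 2 (limma adjusted p = 0.0934). Since the 3p reads can stem from both hairpins, they were also set once against the 5p reads of both, which gave a difference of −1.07 (exact permutation p = 0.1, two-sided, the smallest that 3 against 3 allow). The 5p arm of mir-365a thus had more reads than miR-365-3p in all 6 libraries. The GC trend was not removed from the arm ratios. MiR-365-3p had 31.8% GC, against 56.5% for miR-365a-5p and 59.1% for miR-365b-5p. In the edgeR fit with that trend removed, their log2 fold changes were −0.57, −0.33 and −0.29. What part the trend has in the ratios was not tested.

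None of the 4 hairpins passed in the test of arm ratios, nor did any of the 181 hairpins (0%), of which 35 (19.3%) had an unadjusted p under 0.05 from limma, as had 3 of the 4, with no other tool run. The ranges of the groups lay apart in each of the 4 hairpins and in 22.7% of all 181. The mir-365a and mir-365b ratios have the same 3p counts, so that the 4 hairpins are not separate results. By size of the difference mir-365b ranked 26, mir-365a 37, mir-193b 45 and mir-193a 73 of 181.

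Within a library, members were set against each other in 4 pairs. Of these, 2 compared neighbours in a cluster and 2 the same arm of the 2 clusters. Both neighbour pairs have the same miR-365-3p counts, so that they are not separate results for the 2 chromosomes. The GC trend was not removed from these ratios, although miR-365-3p had 31.8% GC, miR-193a-3p 50.0% and miR-193b-3p 59.1%. In the edgeR fit with that trend removed, their log2 fold changes were −0.57, 1.38 and 0.66. What part the trend has in the ratios was not tested. MiR-193b-3p and miR-365-3p are the pair on chromosome 16 if the miR-365-3p reads come from there. They gave 7.48, 15.1 and 12.8 reads of miR-193b-3p per read of miR-365-3p with RSL3 and IFN-γ, against 1.69, 4.21 and 2.15 with RSL3. No library of the combined treatment came down to the RSL3 range. The mean log2 difference was 2.19, a 4.55-fold higher ratio (exact permutation p = 0.1, two-sided, the smallest that 3 against 3 can give; 0.133 adjusted over the 4 pairs). MiR-193a-3p per read of miR-365-3p, the pair on chromosome 17 if its miR-365-3p reads come from there, stood at 0.109, 0.401 and 0.271 with the combined treatment, against 0.0189, 0.0653 and 0.0364 with RSL3. This mean log2 difference was 2.68, or 6.42-fold (exact permutation p = 0.1, two-sided; 0.133 adjusted over the pairs).

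The members that stand at the same place in both clusters differed less. MiR-193a-5p per read of miR-193b-5p was 0.958, 1.48 and 0.992 with RSL3 and IFN-γ, against 0.564, 0.528 and 0.891 with RSL3. The groups did not overlap, with a mean log2 difference of 0.80 (exact permutation p = 0.1, two-sided; 0.133 adjusted over the pairs). MiR-193a-3p per read of miR-193b-3p was 0.0146, 0.0266 and 0.0212 with the combined treatment, against 0.0112, 0.0155 and 0.0169 with RSL3. These overlapped, with a mean log2 difference of 0.50 (exact permutation p = 0.3, two-sided; 0.3 adjusted over the pairs).

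Reads of 3 kinds tell the clusters apart, and of these the miR-193 3p and miR-365 5p reads came mostly from chromosome 16. MiR-193b-3p made up 98.6%, 97.4% and 97.9% of the miR-193 3p reads with RSL3 and IFN-γ, against 98.9%, 98.5% and 98.3% with RSL3. MiR-365a-5p made up 96.5% (95% exact interval 95.8% to 97.1%), 92.9% (91.7% to 93.9%) and 96.1% (95.3% to 96.7%) of the miR-365 5p reads with the combined treatment, against 96.1% (95.4% to 96.8%), 96.8% (96.1% to 97.3%) and 94.2% (93.2% to 95.1%) with RSL3. These intervals cover counting error only. The miR-193 5p reads were more evenly divided, as miR-193b-5p made up 51.1%, 40.3% and 50.2% of them with the combined treatment, against 63.9%, 65.5% and 52.9% with RSL3.

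The equal miR-365-3p counts were taken once, since they may be the same reads listed in both entries. The members then took 0.240%, 0.240% and 0.254% of a library's total counts with RSL3 and IFN-γ, against 0.153%, 0.194% and 0.123% with RSL3. Each library of the combined treatment was higher (exact permutation p = 0.1, two-sided). With both entries counted, the shares were 0.257%, 0.249% and 0.266% with the combined treatment, against 0.184%, 0.212% and 0.145% with RSL3 (exact permutation p = 0.1, two-sided). The share of miR-193b-3p among the member reads was 51.7%, 59.6% and 59.7% with the combined treatment, against 34.2%, 40.4% and 38.6% with RSL3, with miR-365-3p taken once. With both entries counted it was 48.4%, 57.3% and 57.0% with the combined treatment, against 28.4%, 36.8% and 32.8% with RSL3. With both entries counted, leaving miR-21-5p, the most abundant miRNA, out of the total let the groups overlap (mean 0.361% with the combined treatment and 0.277% with RSL3, exact permutation p = 0.2). In the order of mean levels the combined treatment had miR-193b-3p first, then miR-365a-5p, with miR-193a-5p, miR-193b-5p and miR-365-3p next and overlapping. With RSL3 the ranges of miR-193b-3p and miR-365a-5p overlapped, and miR-365-3p came before miR-193b-5p and miR-193a-5p. MiR-193a-3p was the lowest member in both groups.

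The profiles nearest to 3 of the members over the 6 libraries were looked up among 466 other miRNAs averaging 10 CPM or more. Nearness was the root mean square difference of log2(CPM + 1), each centered on its own mean. Since it was taken over the same 6 libraries, a change in the direction of the member follows from the choice and is no separate result. MiR-320d (0.111), miR-320c (0.115) and miR-378c (0.120) were nearest to miR-193a-3p, where the median of all 466 was 0.799. MiR-320c and miR-378c rose themselves, by log2 fold changes of 1.17 and 1.36 (edgeR adjusted p = 0.0316 and 0.0363). MiR-320b (0.127), let-7g-3p (0.165) and miR-1285-3p (0.172) were nearest to miR-193b-3p. MiR-515-5p (0.0643), miR-301a-3p (0.189) and miR-3145-3p (0.209) were nearest to miR-365-3p, and of these miR-3145-3p fell (log2 fold change −1.50, edgeR adjusted p = 0.0405).

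Other miRNAs with known targets in common with miR-193 were taken as a list. Of 18 miRNAs reported to repress CCND1, MCL1 or KIT, edgeR called 0 in either direction, while 6 had an unadjusted p under 0.05 (25.9% of all tested miRNAs had), and DESeq2 called 2 lower (5.8% of all) and limma 1 (3.3% of all). Their median log2 fold change was −0.08, near the −0.04 of all tested miRNAs. The most abundant over all 6 libraries were let-7b-5p, which restrains growth, at 9966 CPM with the combined treatment and 6680.5 CPM with RSL3 (log2 fold change 0.58, edgeR adjusted p = 0.141), and miR-17-5p, a promoter of the cell cycle, at 3292 CPM with the combined treatment and 6517 CPM with RSL3 (−0.99, edgeR adjusted p = 0.0559). MiR-29a-3p, a repressor of MCL1, was at 0.07, and miR-101-3p at −0.22. With the replicate block miR-17-5p was called lower (edgeR adjusted p = 0.0226). So were 2 more of its cluster, miR-20a-5p (edgeR adjusted p = 0.0416) and miR-19a-3p (edgeR adjusted p = 0.0354), 3 of 18 against 5.67% of all tested miRNAs. Of 17 miRNAs known from brown fat, mostly in mouse, edgeR called 0, DESeq2 and limma 0 likewise, and 1 had an unadjusted p under 0.05, against 25.9% of all tested miRNAs. Their median was −0.20. The most abundant of them over all 6 libraries, miR-27b-3p, miR-378a-3p, miR-26a-5p and miR-93-5p, had log2 fold changes of −0.07, 0.43, −0.29 and −0.64.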

How the data were processed

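Small RNA libraries of 3 replicates per treatment were counted by the authors for each mature miRNA. Bowtie 1.1.1, bcl2fastq and edgeR are the tools in the submitters' processing notes and GRCh38 is the build; how reads matching several miRNAs were treated is not given in these sources. The deposited raw counts were analysed. The deposited normalized signal, which the authors made by dividing the counts of a library by 1 number, was not used, nor were the authors' fold changes and p-values.

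Here the counts received TMM factors and were compared by edgeR 4.0.16 in R 4.3.3 (quasi-likelihood, two-sided) over the 758 miRNAs kept at a minimum count of 10 and total of 15, with p-values adjusted over all of them and called under 0.05. Arm ratios had 0.5 reads added, needed a mean of 10 reads per arm and were tested with limma 3.58.1. DESeq2 1.42.0 served as an alternative, as did other scalings, no filter, limma with 5 CPM added, removal of a loess trend over GC content, and leaving out each library. Shares carry exact Clopper-Pearson intervals at 95%. The fits were tested on simulated data. Loci are from GENCODE 29 and sequences from RefSeq, which matched all members by name.

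The labels number replicates 1 to 3 in both groups but do not say that a shared number marks a shared culture or day. After the group means were subtracted, libraries with the same number correlated at 0.227, 0.217 and 0.207, each over the 0.1 taken as pairing, so values with the block are given where they change a call. The members and lists were chosen with earlier results of these data known. Named miRNAs are the members, miR-365b-5p, miRNAs of the same seed and the 3 nearest profiles. Of the CCND1, MCL1 or KIT list and the brown fat list, those called and up to 4 of the most abundant by the mean over all libraries are named. MiR-19a-3p, miR-20a-5p, the melanocyte markers and the single markers of other cell types were named after their values were seen. Taking the equal miR-365-3p counts once, in shares and arm ratios, was chosen after seeing the data.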

Additional observations from a re-analysis of the deposited data

How the results depend on the processing

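Directions of miR-193a-3p, miR-193a-5p, miR-193b-3p and miR-365-3p held under each alternative run, while calls did not. Fewer alternatives were run on the 4 arm ratios, the 4 ratios between members and the summed share. Their directions held under those, none of which removed the GC trend. Members called higher were 3 with library totals only and by DESeq2, 2 without the filter, by limma and with the replicate block, and 0 with upper-quartile factors or the GC trend removed (5 and 3 at an unadjusted p under 0.05 in either direction), and 0 to 2 with 1 library left out. Members called lower were 2, the miR-365 3p entries with equal counts, without the filter, by DESeq2, by limma and with the block. With 1 library left out they were 0 to 2. Over all miRNAs, 60 rose and 11 fell with library totals only, 50 and 56 without the filter, 52 and 44 by DESeq2, 39 and 43 with the block, and 11 and 9 with the GC trend removed, where 9 fell with the block added. With 1 library left out, 0 to 45 rose and 0 to 50 fell, both lowest without RSL3 replicate 1, where 5 members kept an unadjusted p under 0.05 and no other tool was run. Of the CCND1, MCL1 and KIT list, 2 were called higher with library totals only. Called lower were 1 with upper-quartile factors, 3 without the filter, 2 by DESeq2, 1 by limma, 3 with the block, 1 with the GC trend removed and the block, and 0 to 2 with 1 library left out, and of the brown fat list 0 to 1 were called higher. Signs turned for arms near 0. With library totals only miR-193b-5p was at 0.28, miR-365a-5p at 0.12 and miR-365b-5p at 0.31, and with 1 library left out they ranged from −0.32 to 0.19, −0.55 to 0.058 and −0.16 to 0.060. These were positive without RSL3 replicate 2 for miR-193b-5p and miR-365a-5p (0.019), without replicate 2 of the combined treatment for miR-365a-5p and without its replicate 3 for miR-365b-5p. The causes were not tested.

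With the lowest counts, from 34 to 172 reads a library, miR-193a-3p was the least deeply read member. The block changed no arm ratio call. Without replicate 2 of the combined treatment, whose scaling factor stood apart, the log2 fold change of miR-365-3p was −0.98 and that of miR-193b-3p 0.96.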
